A study of Mus musculus with 21 samples.

Results

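The libraries compared here measured the mRNA of mouse lymphoid progenitors (LPs) that had received single-guide RNAs (sgRNAs) against *Lmo2* and of the same cells with control sgRNAs. There were 3 libraries of each kind. The genes taken were all those with a mean above 1 CPM (reads per 1000000 reads of the library) over these 6 libraries, which kept 11728 of the 55421 genes in the table, 10213 of them protein-coding. Genes on either side of that limit had means of 1.0003 and 0.9995 CPM. Of the genes kept, 306 had a mean above 1 in the control group only and 277 in the *Lmo2* group only.

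All 6 libraries came from one *Ebf1*-deficient LP line of C57BL6/J origin, which had been transduced with Cas9-GFP and was grown on OP9 stromal cells with SCF, IL-7 and Flt3L. The sgControl cells received sgRNAs against luciferase, a gene that mouse cells do not have, and the sgLmo2 cells received a pool of 2 sgRNAs against *Lmo2*, each on a retrovirus with a human NGFR marker. GFP+hNGFR+ cells were sorted 5 days after sgRNA introduction, without Notch stimulation, and 3′ mRNA libraries (QuantSeq) were made from them. A further 9 libraries of the same experiment, 3 each with sgZbtb1, sgCbfa2t2 and sgCbfa2t3, entered the same fit and served as a second comparison group. The cells are a sorted population in which the edits of single cells are not resolved, and in such bulk samples fewer cells of a type and less RNA per cell cannot be told apart.

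Lmo2 is a LIM-only protein that does not bind DNA itself. It bridges basic helix-loop-helix proteins such as Lyl1, Tal1 and the E proteins, the adaptor Ldb1 and, in other lineages, GATA factors into one complex, to which corepressors of the ETO family such as Cbfa2t3 are recruited. It is known as a T cell oncogene and as a factor of stem cells and early progenitors, and in this LP line it was studied for its part in keeping the capacity to enter the T lineage.

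The targeted gene was examined first. *Lmo2* (ENSMUSG00000032698) was at 23.2, 16.2 and 15.8 CPM in sgControl and at 8.48, 24.4 and 15.9 in the libraries labelled sgLmo2, which rest on 27 to 40 and 15 to 50 reads. The groups overlapped, and only the first sgLmo2 library lay below the control range. The log2 fold change was -0.26 with a 95% interval of -0.90 to 0.37 (limma adjusted p = 0.952; two-sided exact permutation p = 0.9, where 0.1 is the smallest value that 3 against 3 libraries allow), and without that first library it was 0.11. A 3′ tag counts transcripts whether or not Cas9 has cut the coding sequence, so mRNA level does not check the labels. The paper reports loss of Lmo2 protein by immunoblotting in GFP+hNGFR+ cells given sgRNAs against *Lmo2*, which these libraries do not measure. The line is also *Ebf1*-deficient by genotype, yet 3′ tags of *Ebf1* stood at 305 to 366 CPM in sgControl and 249 to 310 in sgLmo2, so the tags of this gene do not check the genotype either.

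The libraries held 1705416 to 2045446 reads, and 100% of the values were whole reads. Across genes, the Pearson correlation of log2 values ranged from 0.955 to 0.962 within a group and from 0.955 to 0.961 between the groups, so no library stood apart. Of 20 stromal markers of OP9 cells, 8 were at 0 in all 6 libraries, *Col1a1*, *Col3a1* and *Dcn* among them, and the summed level of the 20 was 11.0 to 15.7 CPM in sgControl and 12.6 to 18.6 in sgLmo2. B lineage genes that mark later stages, *Cd79a* and *Ms4a1*, were at 0, as were *Cd3e* and *Ptcra* of the T lineage.

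The comparison of sgLmo2 with sgControl asks which genes change when *Lmo2* is targeted, before any Notch signal. Few passed an adjusted threshold, and more did with the replicate number as a block, as given below. With 3 libraries a group, a gene that did not pass is not shown to be unchanged. The paper describes a gradual loss of T-lineage capacity after *Lmo2* deletion, reached later than the 5 days of these libraries. At a Benjamini-Hochberg adjusted p under 0.05 in limma, 2 genes passed, which is 0.0171% of those tested, 1 of them lower and 1 higher. The gene that fell was *Irf8*. Without adjustment, 676 genes (5.76%) had a p under 0.05, of which 296 (2.52%) were lower and 380 (3.24%) higher, and the median log2 fold change over all genes was 0.01. By the same unadjusted count, 2040 genes (17.4%) differed from sgControl in sgZbtb1, 1113 (9.49%) in sgCbfa2t2 and 1232 (10.5%) in sgCbfa2t3, each against the same 3 control libraries. Differentially expressed genes (DEGs) had to have an unadjusted p below 0.05, to differ by more than 1 on the log2 scale and to have a mean above 10 CPM in one group at least. They numbered 27 (0.23%), with 19 lower (0.162%) and 8 higher (0.0682%). Leaving out any 1 of the 6 libraries gave 45 to 54 DEGs, of which 16 to 23 were among the 27. The groups did not overlap in 17 of the lower and 7 of the higher DEGs, while over all genes the 3 sgLmo2 libraries lay wholly below sgControl in 5.01% and wholly above it in 5.57%. Only 5 of the 27 DEGs had a mean above 10 in both groups. The other 22 passed the limit through the group in which they were higher, so their number carries no weight of its own, and 1 DEG, *Irf8*, passed the adjusted threshold.

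**Figure D1:**
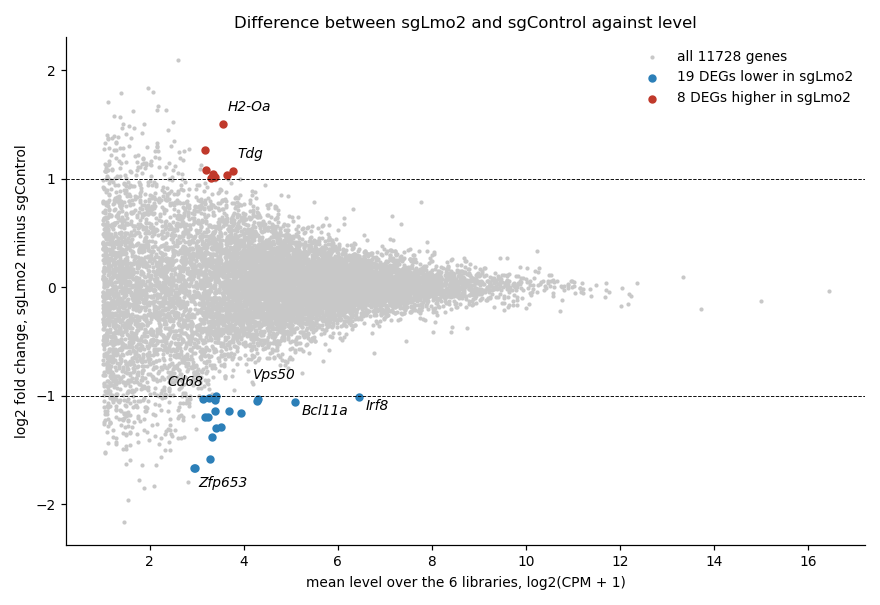
Log2 fold change of sgLmo2 against sgControl (vertical axis, on the log2(CPM + 1) scale) against the mean level over the 6 libraries (horizontal axis, same scale), with 1 point for each of 11728 genes. The 19 lower DEGs (blue) and 8 higher DEGs (red) lie mostly at low levels, where all genes spread widely, and *Irf8* and *Bcl11a* stand at the highest levels among them; dashed lines mark a change of 1.

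*Irf8* (ENSMUSG00000041515, plus strand of chromosome 8, 120736358 to 120756694 in GRCm38) encodes interferon regulatory factor 8, a transcription factor needed for dendritic cells and monocytes and also expressed in early B lineage cells. It was at 111, 120 and 116 CPM in sgControl, from 191, 208 and 197 reads. In sgLmo2 it was at 50.9, 58.2 and 61.9 CPM, from 90, 119 and 113 reads. Every sgLmo2 library thus held less than any control library by a wide gap. The means were 115.6 ± 4.74 and 57.0 ± 5.60 CPM (SD, n = 3 each), a 2.03-fold difference, and the log2 fold change was -1.01 (standard error, SE, 0.13; 95% interval -1.27 to -0.75; limma adjusted p = 1.31e-06). With any single library left out it lay between -1.07 and -0.93, at adjusted p values of up to 0.000174.

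The same gene was then set against the libraries of the other targeted genes, which share the Cas9 cells and the vector but not the target. *Irf8* was at 110.2 to 166.2 CPM in those 9 libraries, with a median of 128.7. No library of the 9 reached down to the sgLmo2 range, and the difference was -1.23 on the log2 scale (SE 0.11; limma adjusted p = 1.36e-13). Taken one at a time, sgLmo2 differed from sgZbtb1 by -1.41, from sgCbfa2t2 by -1.03 and from sgCbfa2t3 by -1.25 (limma adjusted p = 8.62e-13, 7.32e-07 and 2.42e-10). None of those 3 sgRNAs moved *Irf8* past the threshold against sgControl, the log2 differences being 0.40, 0.02 and 0.24 at limma adjusted p values of 0.0593, 0.981 and 0.523.

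Of the 9 interferon regulatory factors *Irf8* alone had a p under 0.05 (11.1%, beside 5.76% of all genes). The log2 fold changes of the 8 others, among them *Irf4*, the closest relative of *Irf8*, ran from -0.11 to 0.27, and *Irf4* was listed with at most 3.52 CPM in any of the 6 libraries.

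**Figure D2:**
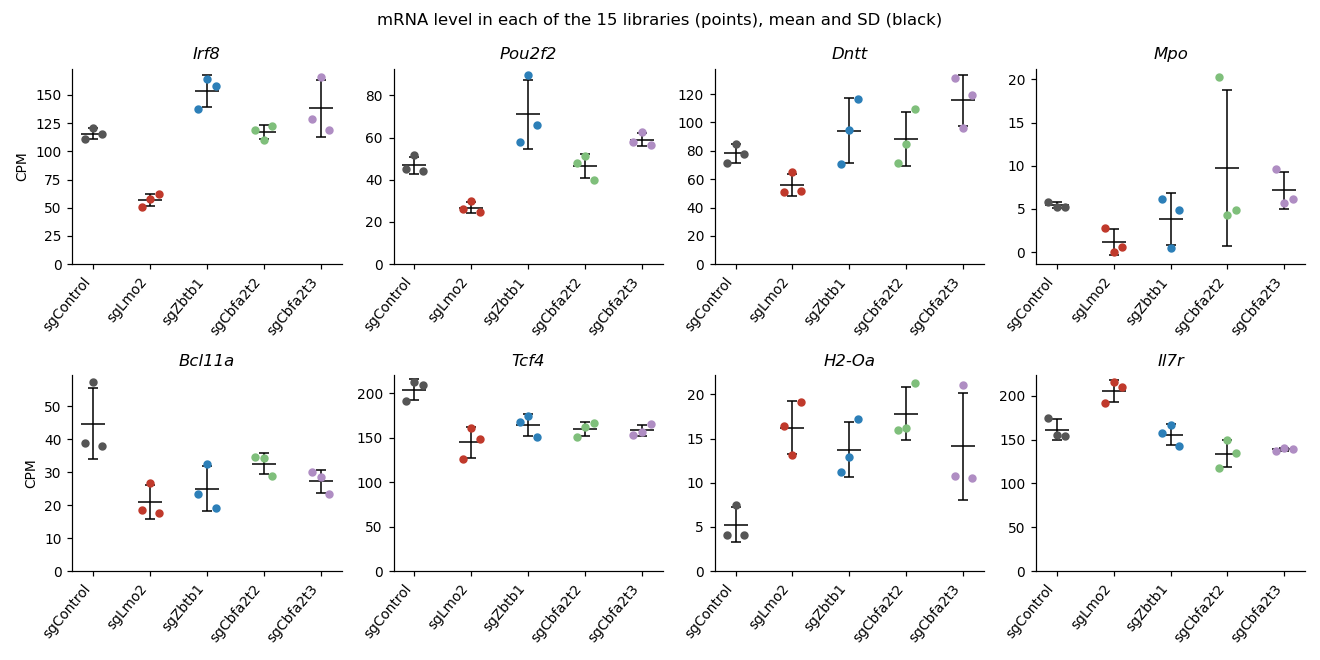
Level in CPM (vertical axis) of 8 genes in each of the 15 libraries (points) by sgRNA (horizontal axis), with the mean and SD of each group in black. For *Irf8*, *Pou2f2* and *Dntt* every sgLmo2 library lay below every library of the other groups. *Bcl11a*, *Tcf4* and *H2-Oa* in sgLmo2 overlapped the range of the other gene-targeting libraries and lay apart from sgControl. The means of *Bcl11a* and *Tcf4* were also lowest in sgLmo2.

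Peaks of Cbfa2t3 and Zbtb1 were deposited from the line without sgRNA, as a single list for both replicates of each factor, and each peak had been assigned to the nearest start site. *Irf8* was the nearest gene of 8 Cbfa2t3 peaks and 3 Zbtb1 peaks. Among the 3593 genes nearest to any of the 6077 Cbfa2t3 peaks the median was 1 peak, and 18 genes had 8 or more. The 8 peaks lay between 20.9 kb upstream and 60.0 kb downstream of the *Irf8* start. The highest, 38.7 kb downstream and outside the gene, had a score of 78.6 and ranked 772 of 6077. The next, with a score of 44.5, lay 2.09 kb downstream in an intron. A Cbfa2t3 and a Zbtb1 peak overlapped by 213 bases about 54.2 kb downstream, with scores of 28.3 and 25.3. Binding of Lmo2 was not analysed here.

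**Figure D3:**
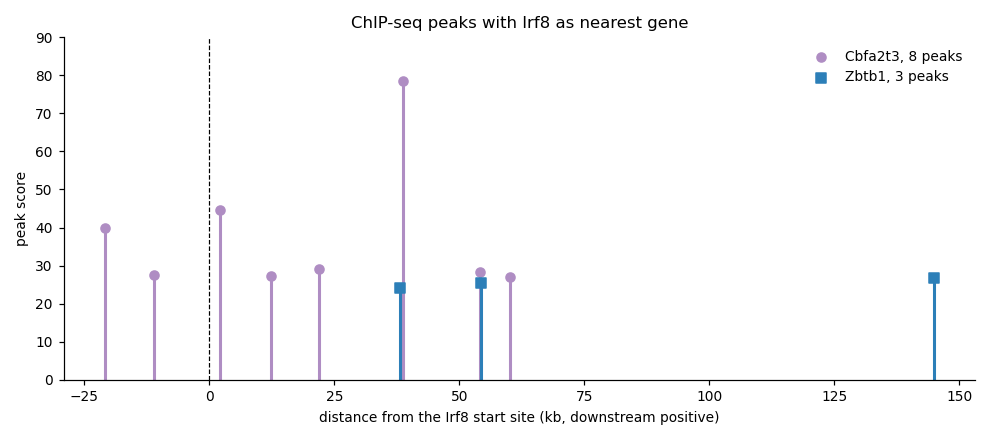
Score of each deposited ChIP-seq peak whose nearest gene was *Irf8* (vertical axis) by its distance from the start site in kb (horizontal axis, dashed line at the start). The 8 Cbfa2t3 peaks (circles) span 20.9 kb upstream to 60.0 kb downstream with the highest at 38.7 kb, and the 3 Zbtb1 peaks (squares) lie at 38.1, 54.4 and 145.0 kb.

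The central 200 bases of these peaks show what DNA Cbfa2t3 was found on at the gene that fell and at *Bcl11a*, the DEG with the next highest level. They are written from the plus strand of GRCm38, with capitals for E-boxes (CANNTG, the site of basic helix-loop-helix proteins), the Runx core (TGTGGT on either strand) and the GATA core (GATAA on either strand). They are the highest Cbfa2t3 peak at *Irf8* (chr8:120777213-120777412), the intronic one (chr8:120740632-120740831) and the highest at *Bcl11a* (chr11:24243012-24243211):
Irf8, 38.7 kb downstream: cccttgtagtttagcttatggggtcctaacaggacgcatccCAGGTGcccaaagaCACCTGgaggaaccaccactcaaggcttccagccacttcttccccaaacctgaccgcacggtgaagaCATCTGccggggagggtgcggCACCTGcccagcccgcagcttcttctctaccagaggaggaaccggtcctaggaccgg
Irf8, intron: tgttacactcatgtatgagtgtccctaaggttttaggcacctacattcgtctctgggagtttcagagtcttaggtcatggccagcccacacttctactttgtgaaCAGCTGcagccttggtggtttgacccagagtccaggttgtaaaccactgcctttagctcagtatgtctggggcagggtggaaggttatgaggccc
Bcl11a, 162.0 kb downstream: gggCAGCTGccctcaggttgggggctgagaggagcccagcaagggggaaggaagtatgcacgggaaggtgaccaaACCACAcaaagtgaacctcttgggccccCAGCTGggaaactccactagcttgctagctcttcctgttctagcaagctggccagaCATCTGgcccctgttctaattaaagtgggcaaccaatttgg

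The first window held 4 E-boxes, the second 1 and the third 3 with 1 Runx core, and none of the 3 held a GATA core. Of the 8 Cbfa2t3 windows at *Irf8*, 6 held an E-box, 1 a Runx core and 1 a GATA core. Over all 6070 Cbfa2t3 windows of this length on the assembled chromosomes, 89.3% held an E-box, 43.7% a Runx core and 13.1% a GATA core. For the 5890 Zbtb1 windows the shares were 53.6%, 41.3% and 9.76%. A match is a description of the letters and does not show which protein was bound there.

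*Bcl11a* (chromosome 11, 24078056 to 24174123) encodes a zinc finger repressor required for early B and lymphoid progenitor development. It was at 38.9, 57.3 and 38.1 CPM in sgControl and 18.7, 26.9 and 17.5 in sgLmo2. The groups were apart by -1.05 on the log2 scale (SE 0.24), and the gene met the DEG rule but not the adjusted threshold (limma adjusted p = 0.11). The 9 libraries of the other sgRNAs stood at 19.2 to 34.6 CPM, a range that holds 1 of the 3 sgLmo2 values and lies above the other 2. The difference from them was -0.41 (limma adjusted p = 0.347). *Bcl11a* was the nearest gene to 4 Cbfa2t3 peaks and to no Zbtb1 peak.

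Of 20 measured members of the list of the Lmo2 complex and its partners, 1 had a p under 0.05 (5.0%, beside 5.76% of all genes), and the median log2 fold change was 0.03 against 0.01 over all genes. That member was *Tcf4*, an E protein that pairs with other helix-loop-helix factors and is known for plasmacytoid dendritic cell identity. *Tcf4* was at 190.5, 211.8 and 208.7 CPM in sgControl and 126.1, 160.4 and 148.5 in sgLmo2. The groups did not overlap and differed by -0.49 on the log2 scale (SE 0.11; limma adjusted p = 0.11). The other sgRNAs gave *Tcf4* levels of 150.7 to 174.5, also below every control library, and did not differ from sgLmo2 past the threshold (-0.15, limma adjusted p = 0.484). *Ldb1*, *Lyl1* and *Tcf3*, which encodes the E proteins E12 and E47, had log2 fold changes of 0.09, 0.09 and 0.17, each with overlapping groups. *Tal1* had the highest log2 fold change of the list, 0.94, at 0.580, 0.578 and 1.76 CPM in sgControl and 2.26, 2.44 and 3.29 in sgLmo2. Its groups did not overlap, but it rests on 1 to 3 and 4 to 6 reads a library (limma adjusted p = 0.896). Against the other sgRNAs those of *Ldb1* and *Lyl1* were -0.15 and -0.27, short of the adjusted threshold.

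The other targeted genes were also in this list. *Zbtb1* was at 61.7 ± 5.51 CPM in sgControl and 55.2 ± 4.50 in sgLmo2, and *Cbfa2t3* at 190.2 ± 18.7 and 173.0 ± 9.27 (SD, n = 3 each; limma adjusted p = 0.944 and 0.923). *Cbfa2t2* was at 11.8 ± 0.698 and 15.3 ± 5.73 (limma adjusted p = 0.953). Against the mean of the other sgRNAs 3 of the 20 members passed the adjusted threshold, which 1.68% of all genes did. *Cbfa2t3* was lower in sgLmo2 by -0.47 (limma adjusted p = 0.000466), *Zbtb1* by -0.46 (limma adjusted p = 0.0465), and *Runx1* was higher by 0.35 (limma adjusted p = 0.0059), at -0.05 against sgControl. The other sgRNAs include those against *Cbfa2t3* and *Zbtb1*, whose own libraries held the most tags of their target, with means of 349.8 and 105.6 CPM.

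Of 17 measured genes of the B lineage list, 3 were lower and 1 higher at an unadjusted p under 0.05 (23.5%, beside 5.76% of all genes), and the median log2 fold change was -0.01. *Pou2f2*, which encodes the octamer factor Oct2, was at 45.3, 51.5 and 44.0 CPM in sgControl and 26.0, 29.8 and 24.7 in sgLmo2. All sgLmo2 libraries were below all controls, by -0.79 on the log2 scale (SE 0.18; limma adjusted p = 0.112). Against the other sgRNAs, which stood at 40.1 to 89.4 CPM, *Pou2f2* fell by 1.08 on the log2 scale (SE 0.15; limma adjusted p = 6.36e-07), and it was lower than under each of the 3 (limma adjusted p = 1.14e-07, 0.044 and 5.11e-05 for sgZbtb1, sgCbfa2t2 and sgCbfa2t3).

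*Dntt*, the template-free DNA polymerase of antigen receptor rearrangement, had the same order of groups. It was at 71.4, 85.1 and 78.0 CPM in sgControl, 50.9, 65.0 and 51.5 in sgLmo2 and 71.0 to 131.4 in the other 9 libraries. The log2 fold change was -0.48 against sgControl (limma adjusted p = 0.718) and -0.80 against the other sgRNAs (limma adjusted p = 2.14e-05). *Il7r*, the receptor chain through which LPs receive IL-7, went the other way, with 174.8, 155.1 and 153.6 CPM in sgControl and 191.7, 215.6 and 209.8 in sgLmo2. That is a log2 fold change of 0.35 against sgControl (limma adjusted p = 0.718), and *Il7r* was 0.53 above the other sgRNAs, whose 9 libraries reached 166.9 (limma adjusted p = 0.000103). *Ebf1* was at 336.3 ± 30.5 and 287.4 ± 33.6 CPM (SD, n = 3 each; limma adjusted p = 0.843).

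Myeloid and dendritic genes had the lowest median of the larger lists. Of the 32 genes, 21 were measured, 15 of them below and 6 above sgControl, where 52.1% of all genes were above. The median log2 fold change was -0.30, and the SD of the list median between libraries was 0.166 in sgControl and 0.187 in sgLmo2. At an unadjusted p under 0.05, 4 were lower (19.0% of the 21, beside 2.52% lower over all genes) and none higher, and *Irf8* was the only one past the adjusted threshold. *Mpo*, myeloperoxidase of granulocyte and monocyte progenitors, was at 5.81, 5.21 and 5.28 CPM in sgControl and 2.83, 0 and 0.547 in sgLmo2. This rests on 28 reads in the control group and 6 in sgLmo2, with 2 of the sgLmo2 libraries under the floor of 3 reads (log2 fold change -1.83, SE 0.54; limma adjusted p = 0.653). *Cd68*, a lysosomal glycoprotein of macrophages, was at 10.5, 11.0 and 10.6 in sgControl and 6.79, 3.42 and 4.38 in sgLmo2 (-1.03; limma adjusted p = 0.836), and its level in sgLmo2 lay within the 2.95 to 12.2 of the other sgRNAs.

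*Cst3*, a cysteine protease inhibitor abundant in dendritic cells, was at 175.4, 187.5 and 182.4 CPM in sgControl and 148.1, 168.2 and 147.4 in sgLmo2 (-0.23; limma adjusted p = 0.853). It lay below the 176.4 to 244.3 of the other 9 libraries, a difference of -0.41 (limma adjusted p = 0.00254). *Cebpa*, the myeloid regulator, had a log2 fold change of -0.72 with overlapping groups. The groups also overlapped for *Prtn3*, a primary granule protease, at -0.84, a value that was -1.74 without the first sgLmo2 library and -0.04 without the second. Among the 6 members above sgControl were *Ctss*, a lysosomal protease (0.54), *Lgals3*, a lectin of macrophages (0.53), *Fcgr3*, an Fc receptor (0.30), and its adaptor *Fcer1g* (0.14), all with overlapping groups and an unadjusted p above 0.05. Against the other sgRNAs 3 members of the list were lower at a limma adjusted p under 0.05 and 2 higher, beside 0.52% of all genes lower and 1.16% higher. The lower ones were *Irf8*, *Cst3* and *Mpo* (-1.85; limma adjusted p = 0.0105), and the higher ones *Lgals3* (1.51; limma adjusted p = 1.79e-05) and *Tyrobp*, a receptor adaptor (0.43; limma adjusted p = 0.00639). *Adgre1*, the gene of the macrophage antigen F4/80 and no member of the list, was higher by 0.65 than sgControl (limma adjusted p = 0.125) and by 1.104 than the other sgRNAs (limma adjusted p = 4.14e-09). The granule genes *Elane* and *Ctsg* and the calgranulin genes *S100a8* and *S100a9* were at 0 in all 6 libraries, and the summed level of the 32 myeloid genes was 997 to 1060 CPM in sgControl and 897 to 1050 in sgLmo2. The part of a change in the share of such cells in the *Irf8* difference was not tested.

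No T lineage gene of the list passed the adjusted threshold between sgLmo2 and sgControl. Of 22 measured genes of the Notch and T lineage list, 1 was higher and none lower at an unadjusted p under 0.05 (4.55%, beside 5.76% of all genes). *Tcf7*, which encodes TCF1 and is one of the first genes that Notch switches on, was at 0.580, 5.21 and 2.35 CPM in sgControl and 0, 0.488 and 3.29 in sgLmo2, from 14 and 7 reads in all. A difference was not detectable at this depth (two-sided exact permutation p = 0.5). *Bcl11b* was at 24.4, 20.3 and 18.8 in sgControl and 29.4, 18.1 and 28.5 in sgLmo2, and *Gata3* at 33.9 ± 3.80 and 36.6 ± 3.07 (SD, n = 3 each), each with overlapping groups. *Rbpj*, the DNA-binding partner of the Notch receptors, had a log2 fold change of -0.19, also with overlap. In 2 members the sgLmo2 libraries lay wholly below sgControl at an unadjusted p above 0.05, an order that 5.01% of all genes had. *Cd247*, the zeta chain of the T cell receptor complex, was at 8.13, 5.79 and 5.28 CPM in sgControl and 3.39, 4.40 and 1.095 in sgLmo2 (-0.99, and -0.58 without the third sgLmo2 library; limma adjusted p = 0.877), and *Satb1*, a chromatin organiser, at 887.4, 838.7 and 921.8 against 778.0, 827.2 and 820.1 (-0.13; limma adjusted p = 0.896).

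The member of that list with a p under 0.05 was *Thy1*, a surface glycoprotein of T cells and early lymphoid cells. It was at 313.0, 332.2 and 299.6 CPM in sgControl and 363.6, 397.0 and 374.2 in sgLmo2, a difference of 0.26 on the log2 scale (SE 0.11; limma adjusted p = 0.836). The other sgRNAs stood at 136.5 to 292.7, below every library of both groups. The difference of sgLmo2 from them was 0.83 (limma adjusted p = 1.38e-10), and for *Ly6d*, a surface marker of lymphoid progenitors turning to the B lineage, 1.85 (limma adjusted p = 2.29e-18). *Ly6d* was at 134.2 to 185.9 CPM in sgControl, 179.2 to 222.9 in sgLmo2 and 23.6 to 101.1 in the other 9 libraries. *Bcl11b* also differed from the mean of the other sgRNAs, by 1.38 (limma adjusted p = 0.00298), with 4.30 to 24.5 CPM in those 9 libraries. Taken one at a time, *Bcl11b* passed against sgZbtb1 only (2.05; limma adjusted p = 7.17e-05). Against sgCbfa2t2 and sgCbfa2t3 it was higher by 0.94 and 1.14 (limma adjusted p = 0.562 and 0.17). For *Thy1* and *Ly6d* every library of the other sgRNAs lay below every control library, while for *Bcl11b* they overlapped.

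Over all genes, 197 (1.68%) had a limma adjusted p under 0.05 between sgLmo2 and the mean of the other sgRNAs, of which 61 (0.52%) were lower and 136 (1.16%) higher in sgLmo2. The number was 92 without the second sgLmo2 library and 95 without the third. Both comparisons use the same 3 sgLmo2 libraries and are not independent. Among the 24 DEGs whose libraries do not overlap, *Irf8* and *Zfp653* also had an adjusted p under 0.05 against the other sgRNAs. *Zfp653*, a zinc finger repressor gene, was at 11.0, 11.6 and 8.21 CPM in sgControl, 5.09, 0.488 and 3.83 in sgLmo2 and 5.89 to 13.9 in the others (-1.66, limma adjusted p = 0.279; -1.47 against the others, limma adjusted p = 0.0111). Without the second sgLmo2 library the first of these was -1.04.

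**Figure D4:**
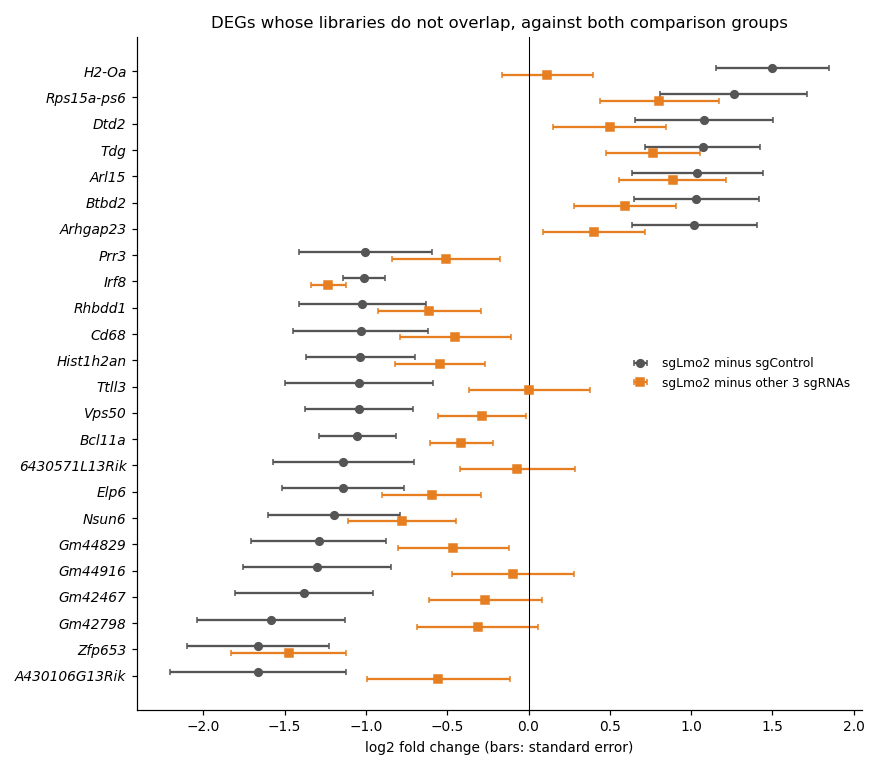
Log2 fold change (horizontal axis) of the 24 DEGs whose sgLmo2 and sgControl libraries do not overlap (vertical axis), against sgControl (grey circles) and against the mean of the other 3 sgRNAs (orange squares), with standard errors as bars. *Irf8* lies at -1.01 and -1.23 with the narrowest bars, and *H2-Oa* moves from 1.50 to 0.12.

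Other lower DEGs stood at low levels. *Nsun6*, an RNA cytosine methyltransferase, was at 13.9, 8.10 and 14.1 CPM in sgControl and 2.83, 4.89 and 6.57 in sgLmo2. *Elp6*, a subunit of the Elongator complex that modifies tRNA, was at 14.5, 16.8 and 17.6 against 8.48, 10.8 and 3.29, and *Vps50*, a subunit of an endosomal tethering complex, at 29.6, 22.0 and 22.3 against 5.65, 18.1 and 13.7. None of these passed the adjusted threshold (limma adjusted p = 0.778, 0.718 and 0.718). *Rhbdd1*, *Prr3*, *Ttll3* and *6430571L13Rik* had log2 fold changes of -1.02, -1.003, -1.04 and -1.14 without overlap of the groups, and *Ttll3* differed from the other sgRNAs by 0.0033. With 1 sgLmo2 library left out the log2 fold change was nearer to 0 for *Vps50* (-0.60 without the first), *Ttll3* (-0.48 without the second) and *Elp6* (-0.71 without the third), none of which then met the DEG rule. *Nsun6*, *Ttll3* and *Rhbdd1* overlap *Gm36930*, *Arpc4* and *Gm19552* on the same strand, where reads can be shared. *Nsun6*, *Prr3* and *Zfp653* overlap *Arl5b*, *Gnl1* and *Gm16845* on the opposite strand, where sharing depends on whether strand was used in the counting, which is not given in the sources used here.

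Several lower DEGs are uncertain as genes. *Gm42798*, *Gm42467* and *Gm44916*, unverified transcripts on the strand of *Ppm1g*, *Tmem248* and *Efl1*, lie in those genes and can share their reads, as *Gm47664* can with *Elmo1* and *A430106G13Rik* with *Gm4258*. *Gm44829* overlaps no gene that was measured. *Hist1h2an* belongs to the histone H2A genes, near-identical copies between which reads can be split. With *Zfp799* and *Gm47664*, whose groups overlapped, these complete the 19 lower DEGs. Leaving out the first sgLmo2 library gave log2 fold changes of -1.07 for *A430106G13Rik*, -0.80 for *Gm44829* and -0.58 for *Gm47664*, from -1.66, -1.29 and -1.15 in all libraries, and leaving out the third gave -1.89 for *Gm47664*. Leaving out the second gave -0.80 for *Gm44916* and -0.50 for *Hist1h2an*, from -1.30 and -1.03.

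Among the higher DEGs, *H2-Oa*, the alpha chain of the class II modulator H2-O, had the largest fold of the protein-coding ones. It was at 4.07, 7.52 and 4.10 CPM in sgControl and 16.4, 13.2 and 19.2 in sgLmo2, a difference of 1.50 on the log2 scale (SE 0.35; limma adjusted p = 0.112). The other 9 libraries stood at 10.5 to 21.3, above every control library as well, and the difference from them was 0.12 (limma adjusted p = 0.918). As a class II gene it has relatives with which reads may be shared. *Psmb9*, an immunoproteasome subunit, was the other of 23 antigen presentation genes with a p under 0.05 (0.38; limma adjusted p = 0.778), which makes 8.7% beside 5.76% of all genes, and the median of that list was 0.02.

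*Tdg*, the DNA glycosylase that removes oxidised methylcytosine, was at 8.13, 7.52 and 7.62 CPM in sgControl and 19.2, 16.6 and 16.4 in sgLmo2, with no overlap (1.07, SE 0.36; limma adjusted p = 0.775). It was the 1 of 21 DNA methylation genes with a p under 0.05, a share of 4.76% beside 5.76% of all genes. *Btbd2*, *Arl15*, *Arhgap23* and *Dtd2* had log2 fold changes of 1.03, 1.04, 1.02 and 1.08 without overlap. *Rps15a-ps6*, a processed copy of a ribosomal protein gene inside *Nudcd3*, and *Ighv1-23*, whose groups overlapped, are uncertain for the same reasons as above. Without the second control library *Dtd2* was at 0.57, and without the first *Rps15a-ps6* was at 0.65 and *Ighv1-23* at 0.66, from 1.26 and 1.01 in all libraries.

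The remaining lists had 0 to 3 genes with an unadjusted p under 0.05, which 5.76% of all genes had, and nothing is read from shares near it. Of 30 proliferation genes none had a p under 0.05, and their median log2 fold change was 0.01, with a range of -0.27 to 0.33. One gene each passed without adjustment among 29 p53 targets (*Zmat3*, 0.39), 25 interferon response genes (*Zbp1*, 1.47, at 0 to 1.76 CPM in sgControl), 14 of the Bcl2 family (*Mcl1*, 0.26) and 22 corepressors (*Hdac1*, 0.26), shares of 3.45%, 4.0%, 7.14% and 4.55%. Their list medians were 0.06, 0.00, 0.02 and 0.01. Of 23 stem and progenitor genes 2 passed (8.7%), *Bcl11a* lower and *Ly6d* higher. Among 28 cytokine receptor and signalling genes 3 passed (10.7%). *Il6ra* was lower (-1.63, from 29 reads in sgControl and 7 in sgLmo2), and *Il7r* and *Socs1* were higher (0.35 and 0.85, the latter 0.52 without the second control library), with limma adjusted p values of 0.653, 0.718 and 0.778. Of the 14 natural killer and innate lymphoid genes 6 were measured and none passed. Of 21 erythroid and megakaryocytic genes 4 were measured and 1 passed. *Hbb-bt*, an adult beta globin with a near-identical copy, was at 148.1, 127.9 and 113.8 CPM in sgControl and 113.1, 74.8 and 71.2 in sgLmo2 (-0.61; limma adjusted p = 0.125). It was 0.97 below the other sgRNAs on the log2 scale (limma adjusted p = 1.78e-08). Their libraries ran from 112.0 to 277.2 CPM, a range that holds the first sgLmo2 library. Against sgControl, *Hbb-bt* was itself higher in sgCbfa2t3, by 0.72 (limma adjusted p = 0.0034).

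**Figure D5:**
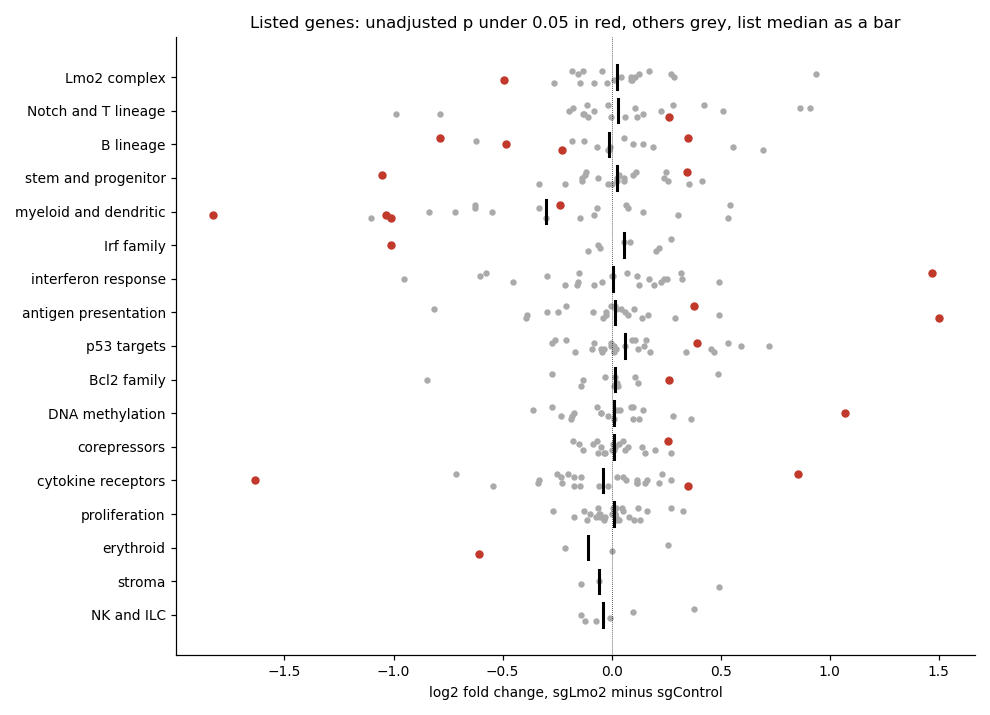
Log2 fold change of sgLmo2 against sgControl (horizontal axis) for each measured gene of 17 gene lists (vertical axis), in red where the unadjusted p is under 0.05, with a bar at each list's median. The myeloid and dendritic list has its median at -0.30 and 4 red points, all lower, and proliferation genes lie between -0.27 and 0.33 with none in red.

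The peak lists were also set against the genes as a whole. A Cbfa2t3 peak had 7 of the 27 DEGs as nearest gene (25.9%), beside 20.3% of all 11728 genes and 23.1% of the 8205 protein-coding genes with a mean above 10 in either group. For Zbtb1 the shares were 4 DEGs (14.8%), 26.5% and 31.2%. Of the 19 protein-coding DEGs, 6 (31.6%) had a Cbfa2t3 peak and 4 (21.1%) a Zbtb1 peak. Genes that were lower at an unadjusted p under 0.05 had a Cbfa2t3 peak in 18.9% of 296 cases and those that were higher in 25.8% of 380, beside the 20.3% of all genes. The corresponding Zbtb1 shares were 22.3% and 32.4%, beside 26.5%. These shares are descriptions, and the groups of genes also differ in level.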

How the data were processed

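QuantSeq FWD libraries were sequenced as single reads on a NextSeq 500. The submitters' processing notes name fastp, STAR, Bowtie 1.1.1 and HOMER with mm10. The table deposited under the name TPM holds CPM, reads per gene scaled to 1000000 per library by the authors without length correction, and the deposited peak lists give HOMER peak scores. Columns of the authors' own group means and tests were not used. Members and lists were chosen with earlier results of these data known. Values were taken as log2(value + 1) and all 15 libraries, in 5 groups of 3, were fitted in limma 3.58.1 (R 4.3.3; eBayes with trend), with Benjamini-Hochberg adjustment over 11728 genes. Fold changes on this scale come out too small for genes at low levels. Whole reads were recovered within 0.02 reads (100% of values) and tested with edgeR 4.0.16 (2 genes at an adjusted p under 0.05) and DESeq2 1.42.0 (3 genes) as alternatives. Totals of 1705416 to 2095447 reads set the precision of counting. The intervals rest on the limma standard errors, so they measure the spread between libraries. The floor (3 reads) covers counting error only. The chi-square per degree of freedom between replicates ran from 2.25 to 3.13, so replicates spread more than counting error alone. The fits were tested on simulated data.

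Named were the DEGs without overlap, genes with an adjusted p under 0.05, the 4 targeted genes, *Tcf7*, *Bcl11a*, *Bcl11b*, *Gata3*, *Ebf1* and up to 4 members of each list with the lowest p, of which those with a p under 0.05 are given. Other genes were named after their values were seen. 1 gene that the rule chose is not reported here. Gene coordinates are from GENCODE vM21 and sequences from the RefSeq copy of GRCm38.p6, the assembly of mm10. The replicates were described as independent biological replicates, and the counting strand is not given in the sources used here.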

Additional observations from a re-analysis of the deposited data

How the results depend on the processing

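*Irf8* kept its direction under all 19 alternatives, with log2 fold changes of -1.23 to -0.93, and lost the adjusted threshold only with unlogged values tested gene by gene (adjusted p = 0.672), where 0 genes passed over all (612 at an unadjusted p under 0.05, and 2 with edgeR). The 27 DEGs became 2 with a pseudocount of 5, 10 with a mean above 10 over the 6 libraries, 48 with the 9 other gene-targeting libraries in place of sgControl, and 45 to 54 with 1 library left out, of which 16 to 23 were among the 27. The 2 genes past the adjusted threshold became 5 in the 6 libraries alone, 197 against the 9 other libraries and 1 to 4 with 1 library left out, *Irf8* each time. Same-numbered libraries of sgLmo2 and sgControl had deviations correlated at 0.0942, 0.0421 and 0.0742, under the limit of 0.1 set for pairs, while different-numbered ones gave -0.0746 to 0.000345. Each library thus correlated best with its own number, a hint from the data and not from the design, and the numbers were not taken as pairs. With the replicate number as a block, the 2 genes became 14 (15 libraries) and 22 (6 libraries), with *Irf8*, *Tcf4*, *Bcl11a*, *Hbb-bt*, *Xbp1*, *Itga4* and *Adgre1* in both, while the DEGs stayed at 27. The 197 genes against the other sgRNAs became 124 with all genes above 0 tested and 92 to 208 with 1 sgLmo2 library left out (92 without the second, 95 without the third). Lmo2 mRNA lay between -0.5975 and 0.1147 with 1 library left out and reversed without the first sgLmo2 library. With the other sgRNAs in place of sgControl, *Ttll3* (0.0033), *Cbfa2t2* (-0.0838), *Ebf1* (0.2144), *Cd247* (0.7808), *Satb1* (0.0299), *Gm47664* (0.0131), *Lyl1* (-0.2717), *Runx1* (0.3523, and between -0.1349 and 0.0006 with 1 library left out, reversing without the third sgLmo2 library) and *Ldb1* (-0.1478, and between -0.0271 and 0.1776 with 1 library left out, reversing without the third control library) reversed. *Tyrobp* lay between -0.0435 and 0.1828 with 1 library left out, reversing without the first control or the second sgLmo2 library. The other values kept their direction: of 1343 values of 72 named genes, 1289 stayed on their side of the threshold, 1 lost it and 40 gained it, and 12 of 341 list medians moved by more than the spread between libraries. The causes were not tested. Depth limits genes such as *Tcf7* and *Mpo*, where 1 read is worth 0.489 to 0.586 CPM.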

Other observations

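Some genes outside the lists had a low p against sgControl and were named only after their values had been seen. *Itga4*, the alpha 4 integrin through which progenitors adhere to stroma, was at 344.4, 286.5 and 265.0 CPM in sgControl and 263.5, 197.5 and 212.0 in sgLmo2 (log2 fold change -0.41; limma adjusted p = 0.116). The other sgRNAs stood at 337.6 to 506.1, a difference of -0.92 (limma adjusted p = 1.36e-13). *Adgre1*, which encodes the F4/80 antigen, was at 82.5, 115.2 and 133.7 in sgControl, 152.1, 208.3 and 157.8 in sgLmo2 (0.65; limma adjusted p = 0.125) and 37.8 to 120.7 in the others (1.104; limma adjusted p = 4.14e-09). *Gas7* was at 27.9, 36.5 and 32.3 in sgControl, 52.6, 58.7 and 57.0 in sgLmo2 (0.79; limma adjusted p = 0.541) and 22.9 to 38.2 in the others (0.97; limma adjusted p = 0.000343).

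*Xbp1*, the transcription factor of the unfolded protein response, was at 123.1, 131.4 and 134.3 CPM in sgControl and 193.4, 214.1 and 176.4 in sgLmo2, with no overlap (0.58, SE 0.15; limma adjusted p = 0.184). The other 9 libraries were at 84.9 to 177.0, and the difference from them was 0.77 (limma adjusted p = 9.29e-06). A list of 31 genes of protein folding in the endoplasmic reticulum was then written, with these values in view, so it gets no test. Of the 31, 29 were higher and 2 lower in sgLmo2, where 52.1% of all genes were higher, and the median log2 fold change was 0.12. At an unadjusted p under 0.05, 9 of them were higher (3.24% over all genes), with *Xbp1* itself among the 9. Since the list was written after the values were seen, these counts carry no weight as a result about the set. *Txndc5*, a disulfide isomerase, was at 20.3, 26.6 and 16.4 in sgControl and 35.1, 42.0 and 37.3 in sgLmo2 (0.84; limma adjusted p = 0.564), and *Sdf2l1* at 135.9, 120.4 and 109.7 against 186.0, 160.8 and 150.1 (0.44; limma adjusted p = 0.653). *Hspa5*, the main chaperone of that compartment, was at 1291, 1147 and 1038 against 1470, 1289 and 1179, with overlapping groups (0.18; limma adjusted p = 0.843).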
